A study of Mus musculus with 12 samples.

Results

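Ribosome biogenesis factors are the nucleolar and cytoplasmic proteins that cut, modify and fold the precursor ribosomal RNA and load it with ribosomal proteins. The set described here holds 45 such genes, taken from a list of names, of the 24062 gene symbols counted in the deposit. The list names genes by function and sets no threshold on a measured value, but it was drawn up with earlier results of these data known. Each of the 45 had enough reads in the livers and in the xenografts to be tested. RNA-seq libraries of 12 mice were used, each from 1 mouse. Of these, 6 are livers of male FVB mice which carry LAP-tTA and TRE-MYC (MYC-ON), in which a liver promoter drives the transactivator tTA and tTA drives a human MYC transgene once doxycycline is withdrawn at birth. The human transgene is not among the mouse genes counted. For 21 days, mice 101, 102 and 103 ate the control diet, while 105, 107 and 108 ate a diet without tryptophan (Trp), the No-Trp diet. The labels state an age of 45 days for MYC-ON males without naming a diet. The other 6 libraries are tumors of HCC53N, 1 line of mouse liver cancer cells, injected subcutaneously into female NOD SCID mice. The cells lack p53 and overexpress mutant NRAS, and the labels also call them MYC-ON, and the sources used here leave unclear if they carry the transgene. Xenografts 40, 41 and 43 grew on the control diet and xenografts 35, 36 and 37 on the No-Trp diet for 21 days. In what follows, values are given in the order of these mouse numbers.

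A ribosome starts in the nucleolus, where RNA polymerase I copies rDNA into one long precursor that is later cut into the 18S, 5.8S and 28S RNAs. Small nucleolar ribonucleoproteins (snoRNPs) of the box C/D and H/ACA types modify its nucleotides, a large assembly called the small subunit processome folds its first part, and separate sets of factors carry the 40S and 60S particles to the cytoplasm. MYC, a transcription factor that pairs with MAX and binds the E-box letters CACGTG, is known to drive many of these genes in growing and cancerous cells, which gives the set its place in a MYC-driven liver tumor model.

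Promoter sequences of RefSeq (GRCm38.p6) were searched for these letters, from 250 bases before to 50 bases after each gene start, and 38 of the 45 genes had such a sequence. The canonical E-box CACGTG, which reads the same on both strands, was present in 10 of the 38 (26.3%), against 8.09% of all 27025 genes with a window and 11.5% of the 10576 such genes that were tested in the livers. The variant CACGCG, or CGCGTG on the other strand, was present in 11 of the 38 (28.9%), against 10.5% and 18.8% of the same 2 groups. The stretches of at most 30 bases around the 10 canonical motifs are shown because they are the letters which MYC and MAX are known to bind, with the motif in capitals and each read 5′ to 3′ on the strand of its gene:
Ltv1: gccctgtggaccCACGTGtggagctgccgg
Mybbp1a: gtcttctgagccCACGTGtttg
Nop2: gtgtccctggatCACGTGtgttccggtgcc
Pes1: ccctaggcagggCACGTGcgggaggaagta
Pno1: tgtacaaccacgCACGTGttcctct
Rpf2: aagtaatcggtaCACGTGcattcgctaagg
Tsr1: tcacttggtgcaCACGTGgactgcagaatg
Utp18: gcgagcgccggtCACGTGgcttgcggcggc
Utp20: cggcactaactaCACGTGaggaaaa
Wdr43: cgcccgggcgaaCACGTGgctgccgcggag
Among those shown, the stretch of Pes1 is chr11:3963965-3963994 on the plus strand, that of Tsr1 is chr11:74898092-74898121 on the plus strand, and that of Utp18 is chr11:93885769-93885798 on the minus strand. The 10 genes with the motif had a median log2 fold change of −0.96 between the diets, with 6 of them lower by the test below, and the 28 without it −1.01, with 21 lower. A match in a window is a description of letters and not evidence of binding.

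Between 14865881 and 23751118 reads per liver and between 14660963 and 26085349 per xenograft were counted on genes. Levels are given as CPM, the reads of a gene scaled to one common library total, with TMM factors over the 12 libraries, and the 2 diets were tested against each other in each model by edgeR's quasi-likelihood test, adjusted over all genes tested. A gene is called higher or lower at an adjusted p of at most 0.05. As a check for duplicate libraries, the counts of each pair within a group were compared, and the chi-square divided by its degrees of freedom was 34.6 to 274, so no pair was counted as 1 sample. This sets the pairs against counting noise alone. The labelled tissue was checked against 10 hepatocyte genes such as Alb and Apoa1, whose summed level was 12344 to 134372 CPM in the livers but 819 to 2298 CPM in the xenografts. The deposited files of livers 101 and 108 and of xenografts 41 and 43 carry the mark "resub" in their names, whose meaning is not given in the sources used here. Within the 2 marked livers the median log2 difference of the 45 genes between the diets was −0.74, with 44 below 0. Within the 4 unmarked livers it was −1.18, again with 44 below 0. Marked xenografts were all on the control diet, so no such value exists for them.

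In MYC-ON livers most ribosome biogenesis factors were lower on the No-Trp diet, and none was higher. Of the 45 genes, 33 were lower (edgeR), where 12% of all 14122 genes tested were lower and 13.3% were higher. Both the adjusted p and a fall of at least 2-fold, the thresholds which the study states, were met by 21 of the 45, against 7.27% of all genes. This count fell to 4 without No-Trp mouse 107, was 0 without mouse 101, 103 or 105, and was 32 with library totals as scaling. The median log2 fold change was −0.99, beside −0.0031 for all genes, and 44 of the 45 lay below 0. In 40 of the 45 every No-Trp mouse lay below every control mouse, as in 25% of all genes tested, and the 5 others were Nhp2, Nop10, Rcl1, Gnl2 and Pno1. The largest changes were those of Tcof1, Rrp9 and Nolc1, and the smallest those of Rcl1 and Pno1. These are bulk livers, so fewer cells of a type and less RNA per cell cannot be told apart. Without mouse 101 or 103 of the controls, or mouse 105 of the No-Trp group, 0 of the 45 were called (edgeR). Without No-Trp mouse 107 the number was 21. An unadjusted p under 0.05 was found for 41 of the 45 with all mice, where 5901 of all 14122 genes had one. It was found for 38 in each fit without mouse 101, 103 or 105, where the number over all genes was not counted. Calls fell over all genes tested as well, from 1696 lower with all mice to 118 without mouse 101 and 1 without 103. They were 70 without mouse 105 and 989 without mouse 107.

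**Figure D1:**
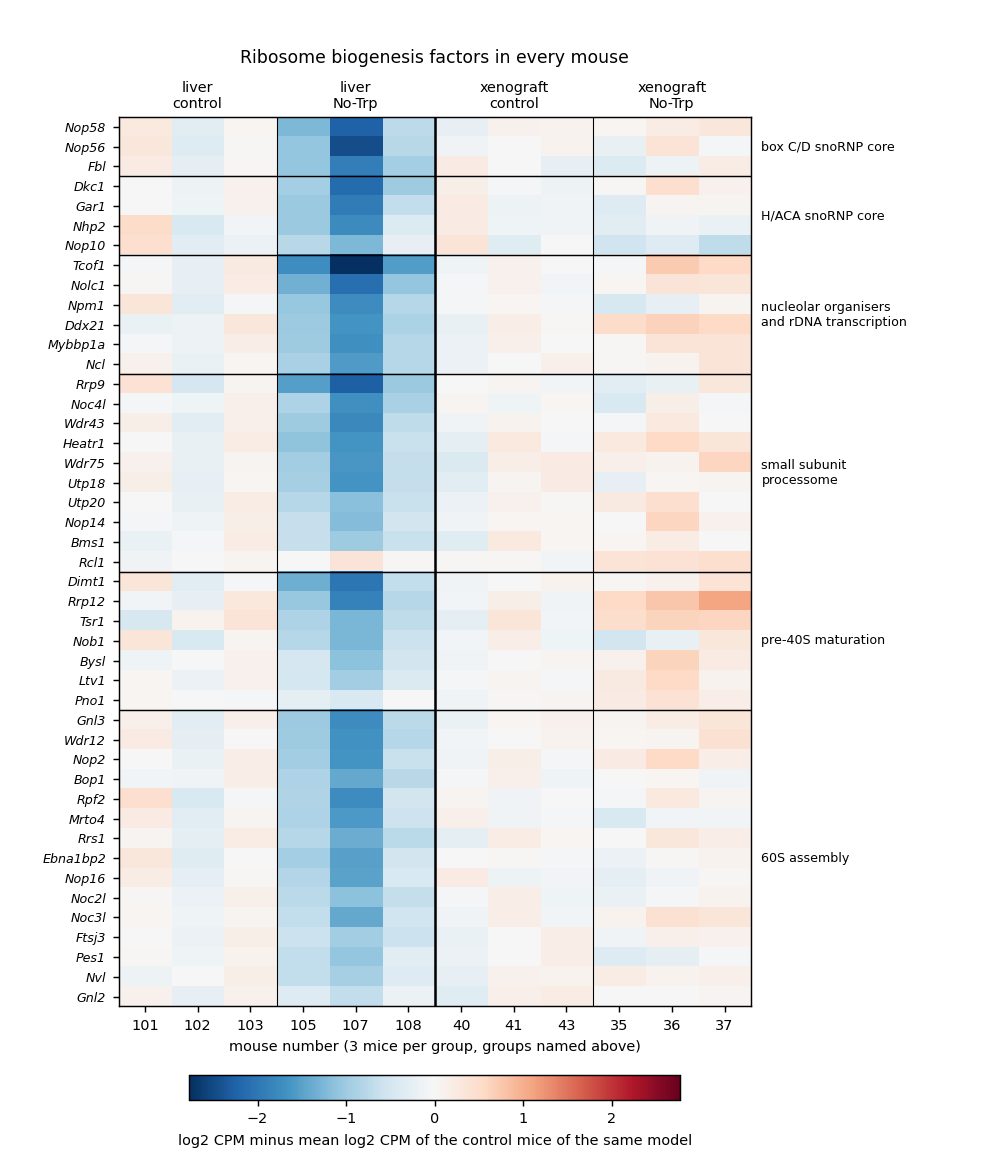
Heat map of 45 ribosome biogenesis factors (rows, grouped by role) in 12 mice (columns, 3 per group). Color gives the log2 CPM of a gene in a mouse minus the mean log2 CPM of the control mice of the same model, and No-Trp mouse 107 was the lowest of its group in 44 of the 45 genes.

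Of the 3 proteins of the box C/D core, 2 were lower in livers on the No-Trp diet. Fbl, the methyltransferase of these particles (chromosome 7, 28169710 to 28179269, plus strand, GRCm38), stood at 387, 274 and 335 CPM on the control diet and at 157, 87.6 and 172 CPM on the No-Trp diet (log2 fold change −1.24, SE 0.28, edgeR adjusted p = 0.0262). All 3 No-Trp mice thus lay below the lowest control mouse. Nop58, which with Nop56 forms the protein scaffold of the particle, went from 346, 231 and 301 to 122, 60.8 and 174 CPM (log2 fold change −1.29, SE 0.37, edgeR adjusted p = 0.0438). Nop56 was at 519, 327 and 431 CPM on the control diet and 198, 76.4 and 245 CPM on the No-Trp diet, a difference of similar size that did not pass the test (log2 fold change −1.29, SE 0.42, edgeR adjusted p = 0.0601). The No-Trp mice again lay below the control mice, but mouse 107 was far below mice 105 and 108. Nop56 shares exon sequence with Idh3b on the other strand, and since the strand setting of the counting is not given in the sources used here, its count is uncertain.

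In the xenografts the same 3 genes overlapped between the diets. Fbl had 160.0, 136 and 116 CPM in control tumors and 104, 124 and 158 CPM in No-Trp tumors (log2 fold change −0.10, SE 0.20, edgeR adjusted p = 0.830). For Nop58 the values were 109, 139 and 138 and 133, 148 and 159 CPM (log2 fold change 0.18, SE 0.16, edgeR adjusted p = 0.618), and for Nop56 233, 248 and 264 and 216, 325 and 239 CPM (log2 fold change 0.054, SE 0.18, edgeR adjusted p = 0.910). The lowest and the highest tumor of each gene could be on either diet.

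The H/ACA core, which converts uridines into pseudouridines, was mixed in its calls. Dkc1, the pseudouridine synthase itself (chromosome X, 75095854 to 75109777, plus strand), was lower in livers on the No-Trp diet, at 99.0, 43.5 and 96.1 CPM against 192, 174 and 209 CPM (log2 fold change −1.26, SE 0.31, edgeR adjusted p = 0.0300). Gar1, its partner, was also lower, at 39.6, 21.1 and 50.7 against 82.1, 74.3 and 87.5 CPM (log2 fold change −1.12, SE 0.30, edgeR adjusted p = 0.0365). In both genes the diets were fully separated. Nhp2, an RNA-binding member of the core, had 472, 249 and 314 CPM on the control diet and 164, 97.5 and 256 CPM without Trp, and mouse 108 lay above control mouse 102 (log2 fold change −0.99, SE 0.39, edgeR adjusted p = 0.0991). Nop10, the smallest protein of the core, had 197, 114 and 127 and 83.7, 59.8 and 121 CPM, also with mouse 108 inside the control range (log2 fold change −0.71, SE 0.31, edgeR adjusted p = 0.127). Neither of these passed the test.

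Nop10 had the lowest log2 fold change of the set in the xenografts. Its levels were 98.8, 60.5 and 75.8 CPM in control tumors and 52.5, 59.8 and 47.0 CPM in No-Trp tumors (log2 fold change −0.57, SE 0.20, edgeR adjusted p = 0.206). The groups did not overlap by a narrow margin, and control tumor 40 was well above the others. Nhp2 had 194, 153 and 155 and 134, 155 and 146 CPM (log2 fold change −0.21, SE 0.15, edgeR adjusted p = 0.520), Dkc1 105, 91.6 and 85.3 and 96.1, 129 and 102 CPM (log2 fold change 0.20), and Gar1 75.3, 58.4 and 60.3 and 50.1, 67.8 and 67.8 CPM (log2 fold change −0.073). In these 3 genes the diets overlapped.

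All 6 nucleolar organisers and rDNA factors were lower in livers on the No-Trp diet, each past 2-fold. Ncl, nucleolin, is an abundant nucleolar RNA-binding protein (chromosome 1, 86344719 to 86359400, minus strand), and its mean fell from 2711 ± 306 to 1303 ± 346 CPM (SD, n = 3 mice each). By mouse it was 2946, 2365 and 2823 CPM and 1442, 909 and 1558 CPM (log2 fold change −1.04, SE 0.30, edgeR adjusted p = 0.0429). Npm1, nucleophosmin, a histone and ribosome chaperone, went from 3360.2, 2149 and 2624 to 1292, 790.2 and 1534 CPM (log2 fold change −1.16, SE 0.34, edgeR adjusted p = 0.0457). In both the highest No-Trp mouse was 108 and the lowest control mouse was 102, with a gap between them.

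Tcof1, which encodes treacle, a scaffold that ties RNA polymerase I to its start factor, had the largest change of the 45. It had 167, 146 and 203 CPM in control livers and 51.7, 24.9 and 58.3 CPM in No-Trp livers (log2 fold change −1.92, SE 0.32, edgeR adjusted p = 0.0181). Nolc1, the related snoRNP chaperone Nopp140, went from 522, 434 and 592 to 204, 121 and 242 CPM (log2 fold change −1.44, SE 0.29, edgeR adjusted p = 0.0218). Each No-Trp liver held less than the lowest control liver by a wide gap in both. Ddx21, an RNA helicase of the nucleolus, was at 438, 447 and 618 and 246, 156 and 269 CPM (log2 fold change −1.15, SE 0.27, edgeR adjusted p = 0.0276). Mybbp1a, a nucleolar protein that binds rDNA, had a log2 fold change of −1.10 (SE 0.27, edgeR adjusted p = 0.0307).

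Ddx21 and Tcof1 were among the highest log2 fold changes of the set in the xenografts, though neither passed the test. Ddx21 had 147, 193 and 173 CPM in control and 241, 265 and 248 CPM in No-Trp tumors, without overlap (log2 fold change 0.54, SE 0.15, edgeR adjusted p = 0.151). Tcof1 had 57.3, 66.9 and 62.0 and 59.9, 102 and 90.7 CPM (log2 fold change 0.43, SE 0.20, edgeR adjusted p = 0.330), where No-Trp tumor 35 lay within the control range. Nolc1 was at 163, 184 and 162 and 176, 217 and 214 CPM (log2 fold change 0.24, SE 0.15, edgeR adjusted p = 0.457). For Ncl the tumors gave 769, 864 and 947 and 873, 923 and 1105 CPM (log2 fold change 0.16), and for Npm1, among the 5 lowest of the set, 1549, 1632 and 1551 and 1159, 1353 and 1664 CPM (log2 fold change −0.19). These last 3 genes overlapped between the diets.

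**Figure D2:**
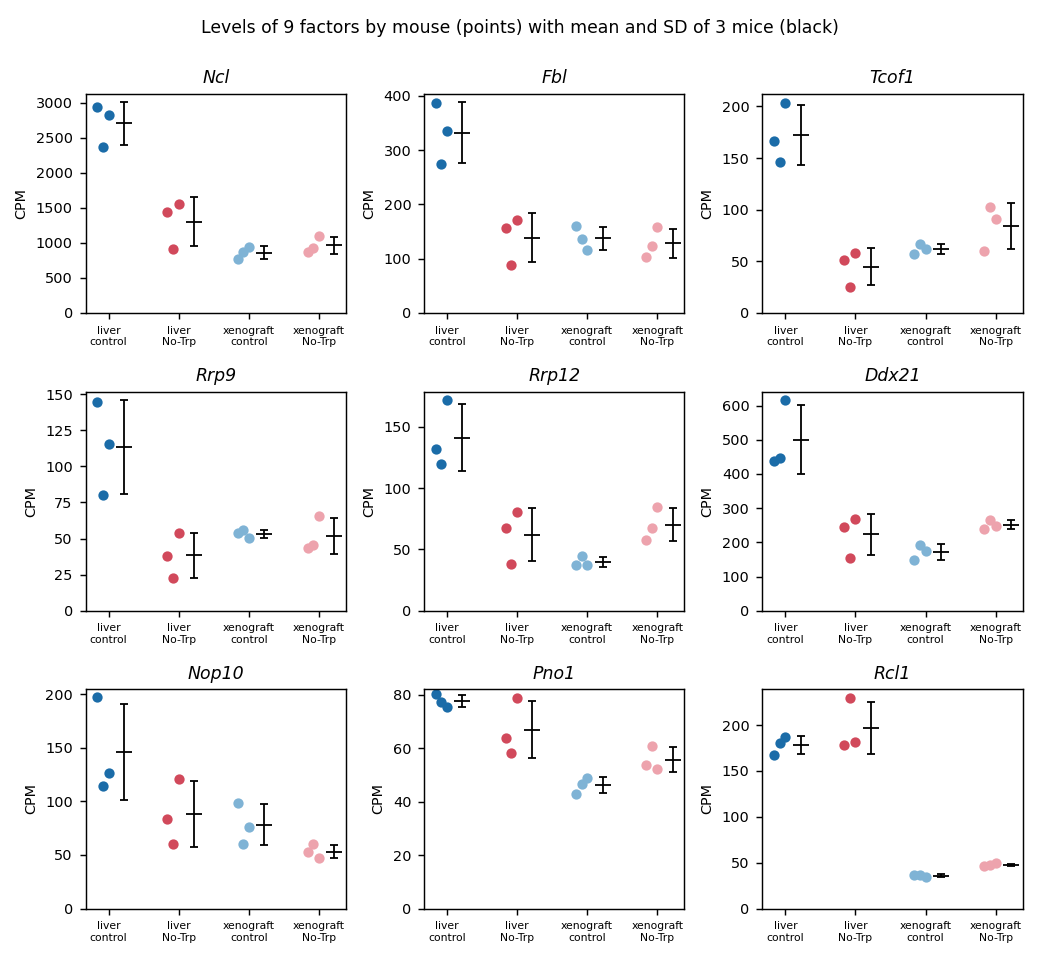
CPM (vertical axes, each starting at 0) of 9 factors in livers and xenografts on each diet. Points are single mice and black marks the mean with the SD of 3 mice. Ncl, Fbl, Tcof1, Rrp9, Rrp12 and Ddx21 are lower in every No-Trp liver than in every control liver, whereas Nop10, Pno1 and Rcl1 overlap.

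The small subunit processome, which folds and first cuts the 18S part of the precursor, had 9 of 10 measured members lower in livers on the No-Trp diet. Rrp9, a protein of the U3 snoRNP (chromosome 9, 106475963 to 106485424, plus strand), showed the largest change, from 145, 80.2 and 115 to 38.2, 22.9 and 53.9 CPM (log2 fold change −1.55, SE 0.35, edgeR adjusted p = 0.0255). The groups did not overlap, with control mouse 102 the lowest of its group. Rrp9 shares exon sequence with Parp3 on the other strand. Noc4l, Wdr43, Heatr1, Wdr75 and Utp18 also fell by at least 2-fold, with log2 fold changes from −1.09 to −1.02, and Wdr43, Wdr75 and Heatr1 are subunits that join the growing precursor while it is still transcribed. Utp20 (−0.83), Nop14 (−0.75) and the GTPase Bms1 (−0.74) passed the test with smaller changes.

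Rcl1, which enters the processome bound to Bms1 and has been linked to cutting of the precursor, was the exception (chromosome 19, 29101375 to 29143929, plus strand). It had 167, 180.4 and 187 CPM on the control diet and 179, 229 and 182 CPM on the No-Trp diet (log2 fold change 0.16, SE 0.17, edgeR adjusted p = 0.509). No-Trp mouse 107, the lowest mouse for the other 44 genes, was the highest mouse for Rcl1. Its sign turned with library totals as scaling, to −0.16, a scaling under which all genes tested had a median of −0.30.

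The same 10 genes lay between −0.090 and 0.39 in the xenografts, with 3 below 0. Rcl1 itself had 36.8, 37.0 and 34.0 CPM in control tumors and 46.5, 47.1 and 49.3 CPM in No-Trp tumors, a difference without overlap that did not pass the test (log2 fold change 0.39, SE 0.14, edgeR adjusted p = 0.206). Rrp9 had 53.5, 55.8 and 50.5 and 43.2, 45.9 and 65.8 CPM (log2 fold change −0.055), and its diets overlapped.

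Of 7 factors that mature the particle on its way to the 40S subunit, 4 were lower in livers on the No-Trp diet. Dimt1, which methylates a pair of adenosines of 18S RNA, had a log2 fold change of −1.26 (SE 0.35, edgeR adjusted p = 0.0384). Rrp12, an export factor, went from 132, 120.0 and 172 to 67.5, 38.1 and 80.5 CPM (log2 fold change −1.17, SE 0.29, edgeR adjusted p = 0.0307). Tsr1, a GTPase-like protein that keeps the immature particle from translating, went from 47.9, 69.6 and 84.2 to 36.3, 27.2 and 39.9 CPM (log2 fold change −0.95, SE 0.25, edgeR adjusted p = 0.0353). Control mouse 101 lay closest to the No-Trp mice for Tsr1. Nob1, the nuclease that makes the final end of 18S RNA, fell from 119.6, 70.9 and 100.5 to 55.2, 39.2 and 63.1 CPM (log2 fold change −0.87, SE 0.25, edgeR adjusted p = 0.0438).

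Ltv1, which holds the beak of the particle, had 58.6, 50.3 and 61.7 and 40.4, 28.8 and 42.9 CPM and did not pass the test despite full separation (log2 fold change −0.59, SE 0.19, edgeR adjusted p = 0.0608). Bysl, bystin, had a log2 fold change of −0.66 (edgeR adjusted p = 0.0514). Pno1, which covers the site that Nob1 cuts, had 80.1, 77.1 and 75.6 CPM on the control diet and 63.8, 58.1 and 78.7 CPM on the No-Trp diet, and mouse 108 lay inside the control range (log2 fold change −0.20, SE 0.16, edgeR adjusted p = 0.368). Nob1 and Pno1, which act at one site, thus differed in their calls, although the difference between the 2 genes was not tested.

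Rrp12 was the member with the smallest p in the xenografts. It had 37.7, 44.3 and 36.9 CPM in control and 58.0, 67.4 and 84.8 CPM in No-Trp tumors (log2 fold change 0.81, SE 0.18, edgeR adjusted p = 0.0957), without overlap, and DESeq2 called it higher (adjusted p = 0.0126). Tsr1 had 32.7, 49.5 and 37.4 and 54.8, 59.9 and 59.0 CPM (log2 fold change 0.53, SE 0.18, edgeR adjusted p = 0.200), again without overlap. Pno1 had 42.8, 46.8 and 48.7 and 53.8, 60.9 and 52.1 CPM (log2 fold change 0.26), and Ltv1 29.5, 32.0 and 29.1 and 35.7, 44.4 and 32.4 CPM (log2 fold change 0.30). Nob1 had 81.4, 97.1 and 78.5 and 59.8, 74.5 and 106 CPM (log2 fold change −0.10), with overlap.

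Of the 15 factors of 60S assembly, 10 were lower in livers on the No-Trp diet and 5 did not pass the test, and all 15 lay below 0. The PeBoW complex of Pes1, Bop1 and Wdr12 acts on the RNA of the large subunit. Wdr12 went from 119, 86.4 and 104 to 51.6, 31.8 and 59.3 CPM (log2 fold change −1.10, SE 0.25, edgeR adjusted p = 0.0264). Bop1 was lower as well (log2 fold change −0.98, SE 0.20, edgeR adjusted p = 0.0232). Pes1 went from 223, 201 and 236 to 137, 104 and 176 CPM and did not pass the test (log2 fold change −0.65, SE 0.22, edgeR adjusted p = 0.0633), although its groups did not overlap. The E-box shown above for Pes1 begins at base 3, counting its start as base 1.

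Gnl3, nucleostemin, a GTPase of dividing and stem cells, had a log2 fold change of −1.11 (SE 0.28, edgeR adjusted p = 0.0316), and Nop2, which methylates a cytosine of 28S RNA, −1.01 (SE 0.27, edgeR adjusted p = 0.0366). Mrto4, which holds the place of the stalk protein P0, went from 144, 100.3 and 129.6 to 68.1, 40.7 and 82.6 CPM (log2 fold change −0.95, SE 0.28, edgeR adjusted p = 0.0438). Noc3l, a partner of Noc2l in the early particle, went from 47.1, 41.9 and 47.6 to 28.4, 17.1 and 31.2 CPM (log2 fold change −0.82, SE 0.24, edgeR adjusted p = 0.0447). The 2 groups did not overlap in either gene. Nvl, an ATPase that strips factors from the particle, was lower by the smallest amount that passed, with 50.7, 55.1 and 62.1 and 34.5, 29.2 and 43.6 CPM (log2 fold change −0.63, SE 0.19, edgeR adjusted p = 0.0496). Gnl2, a GTPase needed for export, had 116, 91.1 and 116 and 83.6, 66.4 and 95.0 CPM, with mouse 108 inside the control range (log2 fold change −0.38, SE 0.19, edgeR adjusted p = 0.161). Rrs1, Ftsj3 and Noc2l fell by 0.95, 0.70 and 0.83 on the log2 scale, whereas Rpf2 (−0.98), Ebna1bp2 (−0.94) and Nop16 (−0.85) did not pass.

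In the xenografts the 15 genes had log2 fold changes from −0.24 to 0.31, with 7 below 0. Pes1 had 150.3, 168 and 191 CPM in control and 131, 141 and 161 CPM in No-Trp tumors (edgeR adjusted p = 0.480). Mrto4 had 58.3, 49.4 and 51.4 and 39.5, 50.1 and 50.5 CPM (log2 fold change −0.19), and Wdr12 25.2, 26.4 and 28.6 and 27.9, 28.1 and 35.6 CPM (log2 fold change 0.18). Noc3l had 47.7, 58.6 and 48.5 and 55.3, 68.5 and 64.8 CPM, Nvl 29.2, 37.4 and 36.7 and 39.2, 36.4 and 37.6 CPM, and Gnl2 48.6, 67.2 and 70.6 and 60.5, 62.0 and 64.3 CPM. In all 6 of these genes the diets overlapped.

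**Figure D3:**
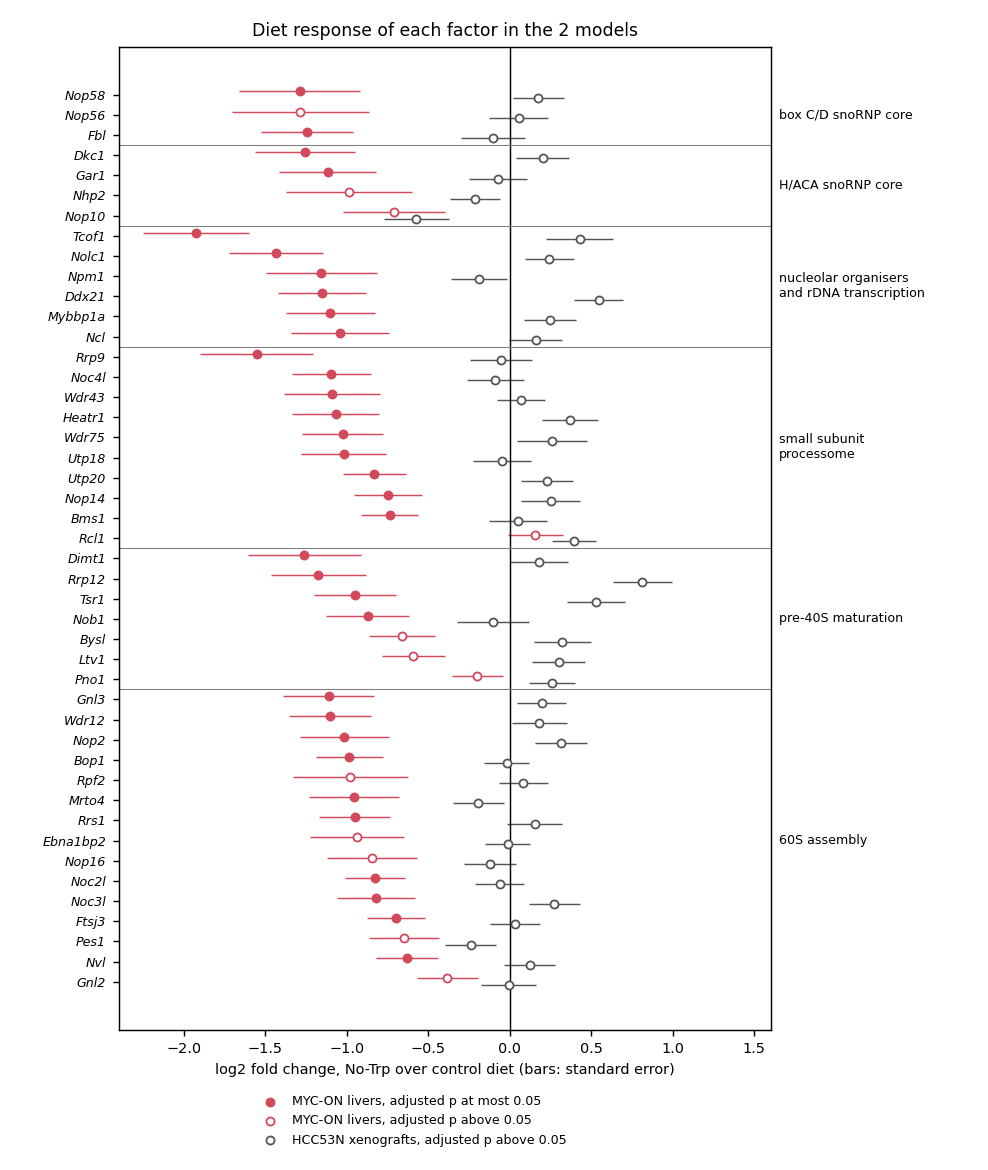
Log2 fold change between the No-Trp and control diets (horizontal axis, bars are standard errors) of 45 factors grouped by role. Red marks livers and grey xenografts, with filled points for an edgeR adjusted p of at most 0.05. Of the 45 points for livers 33 are filled and 44 lie left of 0, and 0 of the points for xenografts are filled.

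Not one of the 45 genes was called in the xenografts by edgeR, where 0.374% of the 14704 genes tested were called in either direction (55 genes). An unadjusted p under 0.05 was found for 5 of the 45, where 2483 of all 14704 genes tested had one. Of the 5, Rrp12, Ddx21, Tsr1 and Rcl1 lay above 0 and Nop10 below. DESeq2 called 1, Rrp12, where it called 297 lower and 341 higher of the 19524 genes it fitted. The median log2 fold change was 0.15, beside −0.0045 for all genes, and 29 of the 45 lay above 0. Every No-Trp tumor lay above every control tumor in 9 genes, as in 10.8% of all genes, and below in 1, Nop10, as in 11.8%. The median over the set moved between 0.066 and 0.24 as each tumor was left out. The standard errors of the 45 log2 fold changes ran from 0.14 to 0.22 in the xenografts and from 0.16 to 0.42 in the livers.

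The change with diet was then compared between the models in one fit of the 12 libraries. The No-Trp to control ratio was higher in xenografts than in livers for 30 of the 45 genes (edgeR, interaction term), where 8.25% of all 15472 genes were called in that direction, and for 0 it was lower. All 45 log2 differences lay above 0, with a median of 1.09. The smallest adjusted p-values belonged to Tcof1 (log2 difference 2.38, SE 0.40, edgeR adjusted p = 0.00735), Ddx21 (log2 difference 1.72, SE 0.30, edgeR adjusted p = 0.00819), Rrp12 (log2 difference 2.01, SE 0.36, edgeR adjusted p = 0.00826), Nolc1 (log2 difference 1.70, SE 0.32, edgeR adjusted p = 0.0100) and Tsr1 (log2 difference 1.50, SE 0.32, edgeR adjusted p = 0.0134). Of the 30, 28 were also lower in the livers and the others were Bysl and Ltv1. The 15 genes that did not pass included Npm1 (log2 difference 0.99, SE 0.36, edgeR adjusted p = 0.0835) and Nop56 (log2 difference 1.36, SE 0.48, edgeR adjusted p = 0.0730), and those with the smallest differences were Nop10 (0.17) and Rcl1 (0.26). The number called was 8 without control liver 103, 17 without control liver 101, 14 without control xenograft 40, 15 without control xenograft 43 or No-Trp xenograft 36, 16 without No-Trp xenograft 37 and 20 to 37 without each other mouse. Over all genes the number called in that direction also moved, from 1276 with all mice to 492 without control liver 103 and 1388 without control liver 102. Tissue, host strain, host sex and cell line differ between the models and cannot be told apart.

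On the control diet these genes stood at a lower level in the xenografts than in the livers. By the same fit 39 of the 45 were lower in control xenografts and 0 higher, where 28.7% of all 15472 genes tested were lower. The median log2 difference was −0.91, beside 0.015 for all genes. Rcl1 differed most, from 178 ± 10.2 CPM in control livers to 35.9 ± 1.68 CPM in control xenografts (SD, n = 3 each, log2 difference −2.31, SE 0.14, edgeR adjusted p = 8.13e-08). Wdr12 (log2 difference −1.95, SE 0.22, edgeR adjusted p = 1.37e-05) and Rrp12 (log2 difference −1.83, SE 0.26, edgeR adjusted p = 7.21e-05) followed. Noc3l was the one gene above 0 (log2 difference 0.18, SE 0.20, edgeR adjusted p = 0.466), and Nob1 (−0.18) and Gar1 (−0.33) came next, none of which passed the test. The mean levels of the set in No-Trp livers and control xenografts were close, with a median log2 ratio of 0.055 for livers over xenografts and 20 of 45 genes lower in the livers.

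Compared per kilobase of coding sequence, the order of the set was steep and led by the same genes in both models. Exon parts outside the coding sequence were not in these lengths, so genes with a short coding sequence may stand too high. Nop10, with 192 coding bases, had a mean of 146 CPM in control livers. Fbl had 332 CPM there but only 339 CPM per kilobase. In control livers Npm1 had 3095 CPM per kilobase, Ncl 1278, Nop10 759.7 and Nhp2 752, and Utp20 was lowest at 13.8. In control xenografts the values were 1801 for Npm1, 408 for Nop10, 406 for Ncl, 364 for Nhp2 and 7.17 for Utp20. Npm1 and Ncl together made up 38.9% to 43.5% of the summed CPM of the set in the livers and 33.6% to 39.5% in the xenografts. Nop10 and Ncl in control xenografts were nearly level.

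The No-Trp livers varied more among themselves than any other group. The median coefficient of variation over the 45 genes was 31.4% in No-Trp livers, 14.7% in control livers, 10.4% in control xenografts and 11.9% in No-Trp xenografts. Relative to the control mean, the median of the set stood at 0.048, −0.21 and 0.11 on the log2 scale in control mice 101, 102 and 103 and at −0.90, −1.61 and −0.66 in No-Trp mice 105, 107 and 108. Mouse 107 was the lowest No-Trp mouse in 44 of the 45 genes and mouse 108 the highest in 40, while control mouse 102 was the lowest control mouse in 38. Among the roles, mouse 107 stood lowest in the box C/D core, at −2.25, and least low in pre-40S maturation, at −1.27. The xenograft medians lay between −0.096 and 0.20.

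Markers of some other cell types and of cell division differed between the diets as well. In livers 0 of 7 macrophage, 0 of 6 T, B and NK cell and 0 of 5 cholangiocyte genes tested were called. The same held for 0 of 5 skeletal muscle and 0 of 4 skin genes. Of 7 fibroblast and stellate genes, 1 was lower and 1 higher. Over all genes tested 12% were lower and 13.3% higher, so 1 call among 6 or 7 genes is near that share. Proliferation genes such as Mki67 and Top2a were lower in No-Trp livers (10 of 10 called, median log2 fold change −2.06). Their summed level was 1809, 1645 and 1826 CPM in control livers and 557, 188 and 576 CPM in No-Trp livers, with mouse 107 lowest. Of 10 hepatocyte genes, 5 were higher and 0 lower (median 1.73), with summed levels of 14278, 42893 and 12344 CPM and 65286, 134372 and 56012 CPM, in which mouse 107 was highest of all and mouse 102 highest among the controls. The 5 genes of fetal or tumor hepatocytes, such as Afp and H19, summed to 29422, 23341 and 27433 CPM and 11641, 2283 and 13635 CPM, with 0 of 5 called. Erythroid genes were lower (4 of 4 tested, of 8 listed), from 48.9 to 536 CPM in control livers against 7.26 to 19.7 CPM, with 4 of the 8 at 0 in every control liver and mouse 105 lowest. Neutrophil genes had 1 of 4 lower, with a sum of 132 to 151 CPM against 7.44 to 70.2 CPM. Endothelial genes had 1 of 6 higher, with sums of 95.7, 185 and 168 CPM and 257, 331 and 206 CPM that did not overlap, and mouse 107 was highest. Adipocyte genes had 1 of 2 tested lower, of 5 listed, from 30.8 to 41.8 CPM in control livers against 14.6 to 20.6 CPM. In the xenografts the 10 proliferation genes summed to 804, 829 and 785 CPM on the control diet and 912, 1208 and 1048 CPM on the No-Trp diet, with 0 called. Adipocyte genes there were higher on the No-Trp diet (2 of 5 called), with 11.4 to 66.9 CPM against 351 to 739 CPM, and 1 of 5 skeletal muscle genes was higher (1.42 to 16.6 CPM against 27.0 to 52.9 CPM). Endothelial sums in the tumors did not overlap either, with 48.1 to 115 CPM in control tumors against 128 to 201 CPM, and 0 of 6 genes were called. The part of these cell types in the values of the 45 genes was not tested.

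**Figure D4:**
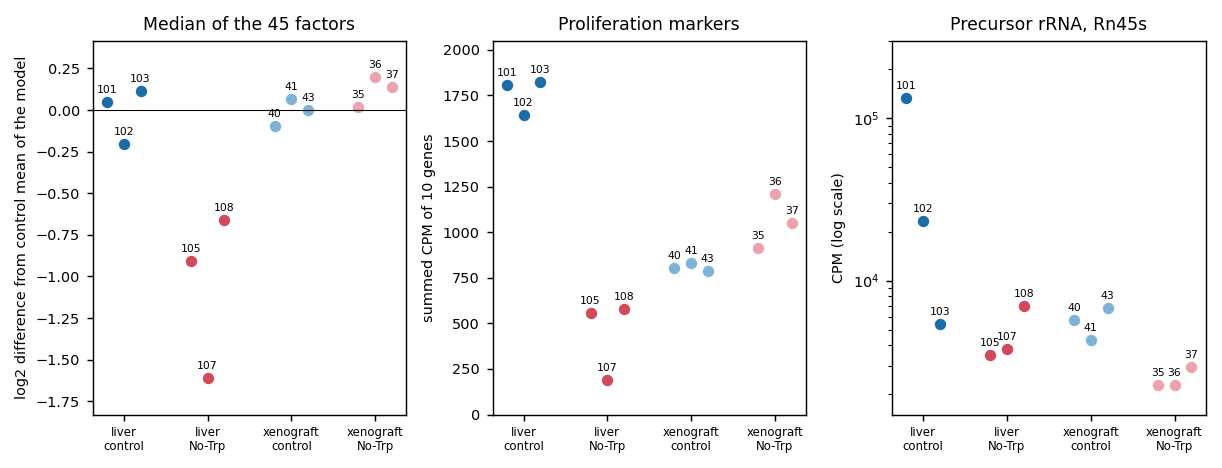
For each mouse, labelled by its number, 3 values: the median log2 difference of the 45 factors from the control mean of the model (left), the summed CPM of 10 proliferation genes (middle) and the CPM of Rn45s on a log axis (right). Reads on Rn45s can come from the precursor rRNA or from the rRNAs cut from it. No-Trp mouse 107 is lowest in the left and middle panels, and control mouse 101 has the highest Rn45s, 134075 CPM.

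Rn45s, the precursor RNA which these factors process, has no poly(A) tail and is not the RNA for which polyadenylated libraries are made. It was at 134075, 23273 and 5431 CPM in control livers and 3500.4, 3817 and 6952 CPM in No-Trp livers (log2 fold change −3.49, SE 1.14, edgeR adjusted p = 0.0603). Control mouse 101 stood far above the rest, and mouse 108 lay above control mouse 103. In xenografts it was at 5739, 4302 and 6774 CPM on the control diet and at 2286, 2286 and 2926 CPM on the No-Trp diet (log2 fold change −1.18, SE 0.21, edgeR adjusted p = 0.0517). In tumors Rn45s lay lower in each No-Trp mouse without passing the test. The median of the 45 factors lay above 0 there. With Rn45s left out of the counts, 35 of the 45 were lower in the livers.

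Other genes of the pathway were described with further lists, chosen with results of these data known. Of 30 other small subunit processome factors, 22 were lower in No-Trp livers and 0 higher (median −0.79), with the acetyltransferase Nat10 the most changed (log2 fold change −1.32, SE 0.23, edgeR adjusted p = 0.0185). Of 36 other 60S factors, 22 were lower and 0 higher (median −0.75), led by Rrp1b (log2 fold change −1.64, SE 0.45, edgeR adjusted p = 0.0398). Among 14 nucleolar helicases 8 were lower (median −0.61), with Ddx18 the most changed (log2 fold change −1.13). These counts are of the same order as that of the 45 genes, with smaller medians.

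RNA polymerase I and its factors had 7 of 14 lower and 0 higher (median −0.78), led by its subunit Polr1e (log2 fold change −1.18, SE 0.30, edgeR adjusted p = 0.0315). The RNA exosome, which trims the ends of the precursor, had 8 of 14 lower (median −0.92), led by its nuclease Dis3 (log2 fold change −1.49, SE 0.33, edgeR adjusted p = 0.0253). The list named late cytoplasmic 40S maturation, which also holds the nucleolar proteins Nop9 and Rrp8, had 3 of 9 lower. Tsr2 led these (log2 fold change −1.13), and the kinase Riok3 was higher (log2 fold change 0.61, SE 0.15, edgeR adjusted p = 0.0296). Of 12 host genes of snoRNAs tested, 2 were lower, a share near the 12% of all genes, namely Snhg5 (−1.54) and Snhg7 (−1.53).

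Of 10 genes of the MYC family and its partners tested in the livers, 2 were lower, MAX's gene Max (log2 fold change −0.69, SE 0.17, edgeR adjusted p = 0.0299) and the MAX partner gene Mxd3 (log2 fold change −2.38, SE 0.49, edgeR adjusted p = 0.0231), and Mycl was higher (log2 fold change 2.87, SE 0.49, edgeR adjusted p = 0.0182). These counts are near the 12% lower and 13.3% higher of all genes tested. The mouse gene Myc, named after its values were seen, had a mean of 32.7 ± 4.81 CPM in control livers and 79.0 ± 47.2 CPM in No-Trp livers (SD, n = 3 each), which did not pass the test (log2 fold change 1.29, SE 0.44, edgeR adjusted p = 0.0705). Its counts are not a measure of the human transgene, and whether reads of the transgene aligned to the mouse gene was not tested. In the xenografts 0 genes of these 8 lists were called.

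**Figure D5:**
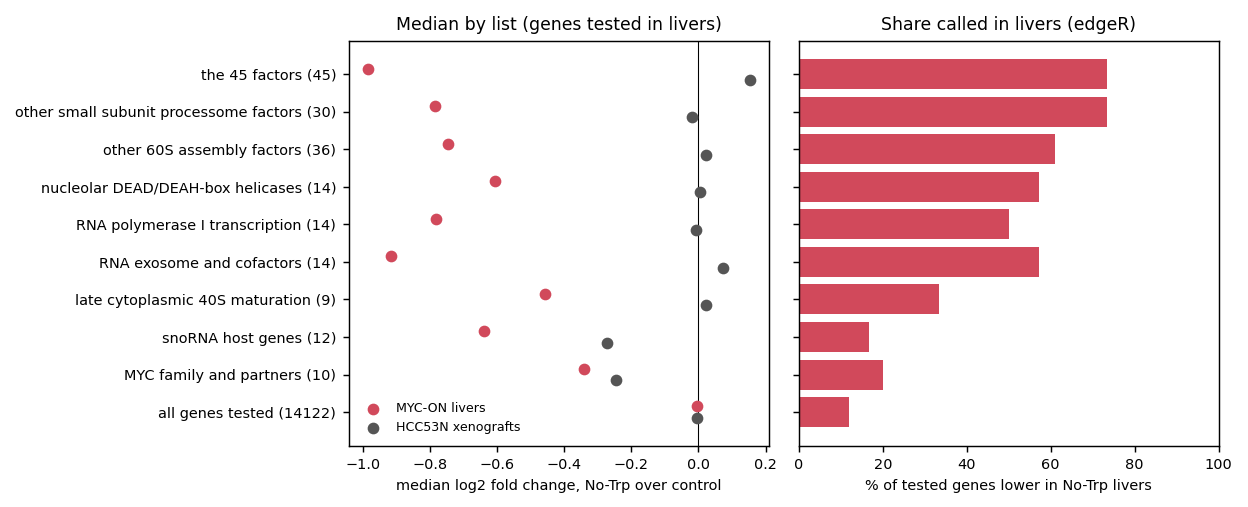
Left, median log2 fold change between the diets of the 45 factors, of 8 further lists and of all genes tested, in livers (red) and xenografts (grey), with the number of genes tested in livers in brackets. Right, percent of the tested genes of each list that were lower in No-Trp livers (edgeR adjusted p of at most 0.05). The medians of the 45 factors are −0.99 in livers and 0.15 in xenografts, and those of all genes tested lie near 0.

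Several of these genes carry other RNA genes or share sequence with neighbours. In GENCODE M21, 7 of the 45 hold 21 snoRNA genes within their span, on either strand, among them 5 in Nop56, 4 in Nop58 and 3 in Ncl. Of the 7, 6 were lower in No-Trp livers, with a median log2 fold change of −1.11, and of the 38 others 27 were, with −0.97. An exon of another counted gene overlapped 15 of the 45, each on the opposite strand. The 15 were Nop56, Nhp2, Dkc1, Bop1, Wdr12, Bysl, Heatr1, Rrp9, Gnl3, Gnl2, Noc2l, Tsr1, Mybbp1a, Pno1 and Dimt1. With the strand setting not given, the counts of all 15 are uncertain, as said above for Nop56. Without these 15, 23 of 30 were lower, with a median of −0.97.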

How the data were processed

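The deposited files hold raw counts for each gene symbol. The authors trimmed the reads (Trim Galore), aligned them with STAR to mm10 (version 2.7.2b in the submitters' notes) and counted them with HTSeq, without normalization. The strand setting is not given in the sources used here. Reads that HTSeq left off genes (24.7% to 39.4%) were left out. Their share was 32.2%, 28.5% and 39.4% in control xenografts and 26.4%, 26.5% and 26.8% in No-Trp xenografts, so the diets did not overlap. In the livers it was 36.1%, 28.6% and 25.2% on the control diet and 26.6%, 24.7% and 27.5% on the No-Trp diet. The part of this share in the diet comparisons was not tested. The 45 genes and all lists were chosen with earlier results of these data known. Counts were tested with edgeR 4.0.16 in R 4.3.3 (filterByExpr with a minimum count of 10, TMM factors, glmQLFit with robust estimation, glmQLFTest, two-sided), with Benjamini-Hochberg adjustment over all genes tested. These edgeR fits were tried on simulated counts, drawn with a fixed dispersion for all genes. The other steps were not tried in this way. A standard error is the log2 fold change divided by the square root of F. CPM use effective library sizes over 12 libraries. Medians by mouse use log2 CPM (prior count 2). The smallest two-sided p that permuting 3 mice against 3 allows is 0.1, so p-values come from the fit over all genes. No source states that the 3 mice of a group shared a litter or cage. Gene positions are those of GENCODE M21 (GRCm38). Coding lengths are those of its principal transcripts. Alternatives were DESeq2 1.42.0, RLE factors, library totals, Rn45s left out, other filters, the mark "resub" in file names as a covariate, a joint fit and leaving out each mouse. Using the unmarked libraries alone was added after the data were seen. Mouse values are printed for the 5 lowest and 5 highest log2 fold changes in each model, the 5 smallest adjusted p of the interaction, the 3 lowest and 3 highest differences between models, and Fbl, Nop56, Nop58, Dkc1, Ncl, Npm1 and Nolc1. Other lists give their most changed gene and any called in the opposite direction.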

Additional observations from a re-analysis of the deposited data

Results flagged for a closer look

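The change with diet differed between livers and xenografts, by the interaction term of edgeR, in 30 of the 45 genes. Among the genes with values printed for each mouse, the log2 difference of the responses (xenografts minus livers) was 2.38 for Tcof1, 2.01 for Rrp12, 1.72 for Ddx21, 1.70 for Nolc1, 1.52 for Rrp9, 1.50 for Tsr1, 1.49 for Nop58 and 1.49 for Dkc1. It was 1.31 for Wdr12, 1.23 for Ncl, 1.16 for Fbl, 1.12 for Noc3l, 0.92 for Ltv1 and 0.78 for Nvl. Groups of 3 mice are too small for a test of single outlying mice.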

How the results depend on the processing

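In livers, 44 of the 45 genes lay below 0 in each fit but that with library totals, where all 45 did, and the median moved between −0.79 and −1.26. The number called depended on single mice. Over the fits without 1 mouse it ran from 0 (without 101, 103 or 105) to 36, with 21 without mouse 107, and the number also past 2-fold from 0 to 28, with 4 without mouse 107. Among all genes tested, the number lower ran from 1 (without 103) to 1828 (without 102) in these fits. With the 4 unmarked livers alone, 0 were called and 0 past 2-fold, with a smallest adjusted p of 0.0923 (edgeR). There 42 of the 45 had an unadjusted p under 0.05, and the number over all genes was not counted. In that fit 0 of all 14198 genes tested were called in either direction. Library totals gave 32 past 2-fold and turned Rcl1 to −0.16, while the median of all genes moved by a similar amount, to −0.30. Other fits called 33 to 41. In xenografts DESeq2 called 1 gene and each other fit 0. The xenograft median was 0.26 with library totals, 0.30 with the mark as a covariate, 0.30 with unmarked libraries alone, and 0.066 to 0.24 without 1 tumor. With library totals 8 of the 45 lay below 0 in place of 16. The interaction called 8 to 37 without 1 mouse and 0 with unmarked libraries alone. Between the models on the control diet, 25 were lower with unmarked libraries alone, 33 to 42 without 1 mouse and 28 to 42 in the others. Of the repeats of named genes in livers, 277 kept their side of the threshold, 82 lost it, 15 gained it and 1 turned; in xenografts 149 kept it and 1 gained it. Where fits without 1 mouse leave 2 mice in a group, fewer samples are tested. Otherwise the cause was not tested. No paired analysis was possible because no 2 groups share mouse numbers. The 45 genes had at least 146 reads in each library, and how much of the error is counting error was not tested.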
